A study of Ovis aries with 15 samples.

Results

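The genes described here are those whose names mark them as subunits of the mitochondrial respiratory chain and of ATP synthase. They were followed in the liver of fetal sheep (Ovis aries) at gestational day (GD) 100, GD124 and GD144, with 4, 5 and 6 libraries. A gene was taken when its name starts with NDUFA, NDUFB, NDUFC, NDUFS or NDUFV, with SDHA to SDHD, with UQCR, with COX4 to COX8 or with ATP5, or when it is a protein-coding row of the mitochondrial genome. Assembly factors such as NDUFAF and SDHAF genes were left out of the members. By this rule 75 of the 31411 genes of the table were members. Of these, 62 lie in the nuclear genome, with 39 in complex I, 4 in complex II, 1 in complex III, 1 in complex IV and 17 in complex V. The other 13 lie in the mitochondrial genome, with 7 in complex I, 1 in complex III, 3 in complex IV and 2 in complex V. By gene name, the nuclear part of complexes III and IV was thus covered by UQCRH and COX5A alone. NDUFA4, whose protein has been assigned to complex IV, was counted in complex I by its name, as was its relative NDUFA4L2. Further nuclear subunits named for complexes III and IV are not analysed here. All 75 members passed the filter on low counts.

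The respiratory chain is a series of protein complexes in the inner mitochondrial membrane. Complex I takes electrons from NADH and complex II takes them from succinate. Coenzyme Q carries them to complex III and cytochrome c on to complex IV, which reduces oxygen. Complexes I, III and IV pump protons, and the proton gradient drives ATP synthase, also called complex V. Most subunits are encoded in the nucleus and imported, whereas a small set is transcribed from the mitochondrial genome. Complex II has no mitochondrially encoded subunit. Fetal liver holds hepatocytes beside blood-forming cells, and erythroid precursors leave the organ as birth approaches.

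Every library came from whole liver by poly(A) selection and paired-end sequencing, and a stage is the sole factor that the labels give for it. The labels name no treatment, breed or sex. Whether each library of a stage is a different fetus is not stated. The p-values therefore set a difference between stages against the spread between libraries, which may not be a spread between fetuses. The letters of the sample codes differ between the stages, and any cohort or batch they stand for cannot be told apart from the stage. In bulk tissue, fewer cells of a type and less RNA per cell cannot be told apart either. Levels are given as CPM, the counts of a gene relative to the scaled library total, with scaling by the trimmed mean of M values (TMM).

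The 15 libraries held 24215611 to 38247314 estimated counts, and 3 counts, taken as the floor of detection for counting error alone, were 0.0784 to 0.124 CPM. Some libraries stood apart. In GD100 replicates 2 to 4, fractional counts appeared in 10.6 to 10.8% of genes. The share was 5.09 to 6.20% in the other 12 libraries. In GD100 replicate 1 the 13 mitochondrial members took 13.4% of all counts, against 3.67 to 6.02% in GD100 replicates 2 to 4, 6.62 to 8.35% at GD124 and 5.42 to 10.96% at GD144. The nuclear members took 0.345 to 0.520% of counts in every library. GD144 replicate 3 held a summed level of 1252 CPM over 19 erythroid markers, against 205 to 282 CPM in the other GD144 libraries. The same sum was 5872 to 15054 CPM at GD100 and 2407 to 4834 CPM at GD124. The summed level of 12 hepatocyte markers was 59203 to 178365 CPM at GD100, 224679 to 262511 CPM at GD124 and 176326 to 220299 CPM at GD144. Other marker lists moved as well. From GD100 to GD144, 12 of 12 proliferation markers were called lower, 8 of 10 macrophage markers higher, 8 of 11 endothelial and stellate markers higher, and 3 of 9 tested muscle markers higher and 1 lower. Of all genes tested, 27.1% were called higher and 27.9% lower in this comparison. The proliferation sum was 1305 to 3040 CPM at GD100 and 545 to 1138 CPM at GD124, and at GD144 it was 303 CPM in replicate 3 against 49.2 to 76.1 CPM in the rest. The part of these marker changes in the results below was not tested. The calls that rest on GD100 replicate 1 or on replicates 2 to 4 are given below.

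Between GD100 and GD144 the nuclear members did not move as a block. Of 62 nuclear members, 20 rose and 8 fell, among them all 4 complex II genes upwards and the ATP synthase inhibitor ATP5IF1 downwards. Here and below, a gene was called when the quasi-likelihood F-test of edgeR gave a Benjamini-Hochberg adjusted p under 0.05 over all 16977 genes tested. Over all 75 members the calls were 20 higher and 9 lower. Of all genes tested, 27.1% were called higher and 27.9% lower in the same comparison, so the share of members called higher, 26.7%, was near that of all genes, and the share called lower, 12.0%, was below it. The median log2 fold change was 0.21 over the nuclear members and 0.03 over all genes. With GD100 replicate 1 left out, 10 nuclear members were higher and 6 lower. Shares of all genes called in the fits that left libraries out are not reported here, so such counts have no share beside them. With GD100 replicates 2 to 4 left out, so that GD100 had 1 library whose spread was taken from the other stages, the nuclear calls were 19 higher and 5 lower. Of the 29 calls among all members, 17 were made in the same direction without replicate 1 and 16 without replicates 2 to 4. Among the genes lost in both cases were NDUFB4, NDUFB9, NDUFB10, NDUFS5 and ATP5F1C. NDUFS4 and ATP5PO were lost without replicate 1. Scaling and model mattered too: 18 of the 29 calls were made with total counts alone and 17 with the replicate number as a block. With only these 2 stages fitted, 20 of them were made.

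**Figure D1:**
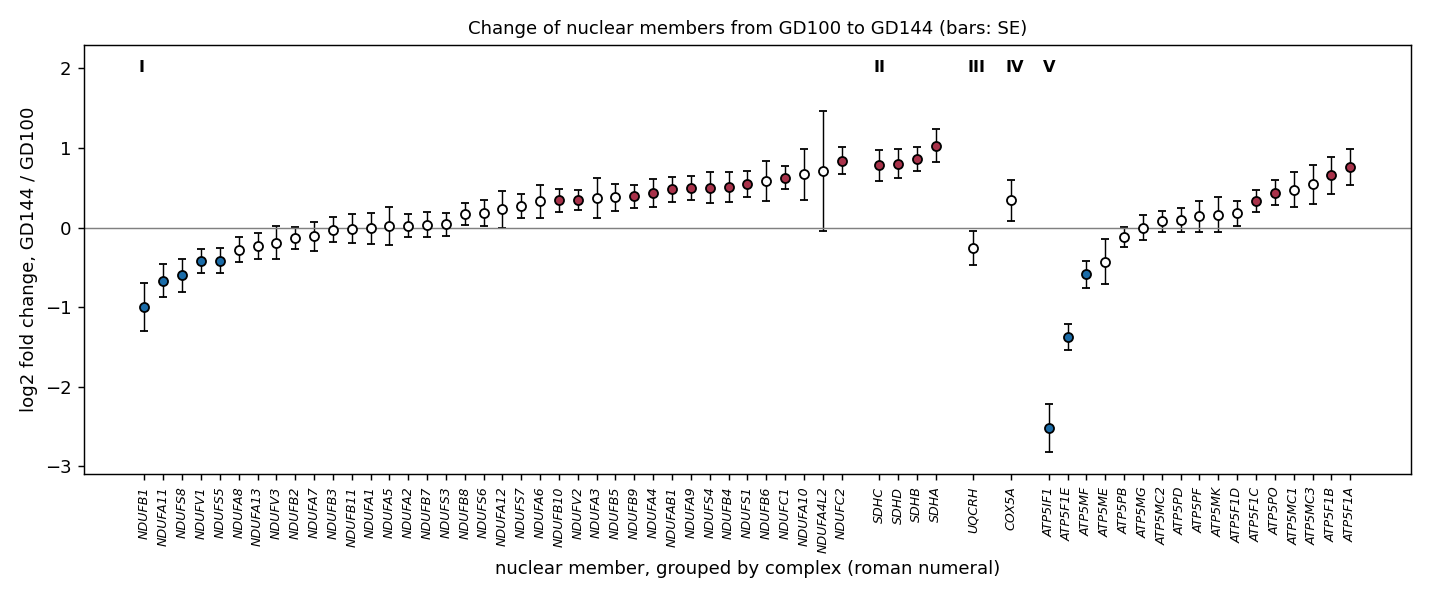
Log2 fold change of the nuclear members from GD100 to GD144 (1 of the 62 is not shown), grouped by complex, with bars for the standard error. Red points were called higher, blue points lower and white points were not called. The 4 complex II genes all lie at or above 0.78, and ATP5IF1 lies lowest at -2.52.

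Fewer members were called in each interval alone. From GD100 to GD124, 3 members were higher (SDHC, SDHD and NDUFAB1) and 6 were lower (ATP5IF1, ATP5F1E, NDUFV1, NDUFA11, NDUFB1 and ND6). Of all genes, 16.6% were called higher and 17.4% lower in that interval, against 4.0 and 8.0% of the members. From GD124 to GD144, 6 members were higher (SDHA, SDHB, ATP5MC1, NDUFS1, NDUFS7 and NDUFA9) and 2 were lower (ATP5F1E and ATP5IF1). The shares over all genes were 12.1% higher and 15.4% lower, against 8.0 and 2.67% of the members. The count of members higher in this later interval depended on the libraries. It was 14 without GD100 replicate 1, 16 without GD144 replicate 1 and 3 without any one of GD124 replicates 2 and 5 and GD144 replicates 5 and 6. The later-interval calls of SDHA, SDHB, ATP5MC1 and ATP5F1E held in all 24 alternative fits. Those of NDUFS1, NDUFA9, NDUFS7 and ATP5IF1 held in 15, 14, 18 and 23.

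Complex II, or succinate dehydrogenase, is the enzyme that the chain shares with the tricarboxylic acid cycle. It was the complex in which every gene rose from GD100 to GD144. SDHA encodes the flavoprotein that oxidises succinate, and SDHB encodes the iron-sulphur subunit that passes the electrons on. SDHA stood at 42.9, 100.3, 93.2 and 81.0 CPM in GD100 replicates 1 to 4, at 94.1, 96.7, 123, 78.9 and 88.6 CPM in GD124 replicates 1 to 5, and from 120 to 193 CPM with a median of 167 CPM at GD144. All GD144 libraries lay above all GD100 libraries, and GD124 overlapped GD100 and, through 1 library, GD144. SDHA rose by a log2 fold change of 1.03 ± 0.21 (SE) from GD100 to GD144, with an edgeR adjusted p of 0.000584. The later interval carried a called rise of 0.75 ± 0.19 (edgeR adjusted p = 0.00851), and the earlier one gave 0.28 ± 0.21, which was not called.

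SDHB stood at 56.3, 72.2, 73.6 and 68.1 CPM in the GD100 libraries and at 87.1, 77.7, 88.2, 95.5 and 73.1 CPM in the GD124 libraries. At GD144 it ran from 86.7 to 144 CPM with a median of 132 CPM, and the GD100 and GD144 libraries did not overlap. Its log2 fold change from GD100 to GD144 was 0.87 ± 0.15, with an edgeR adjusted p of 0.000139. As for SDHA, the later interval was called, at 0.55 ± 0.14, and the earlier one, at 0.32 ± 0.15, was not.

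SDHC and SDHD encode the membrane anchor that holds haem and the site where coenzyme Q is reduced. SDHC stood at 38.9, 77.9, 79.9 and 88.4 CPM in the GD100 libraries, at 139, 132, 138, 98.5 and 99.8 CPM in the GD124 libraries, and from 99.0 to 133 CPM with a median of 128 CPM at GD144. SDHD stood at 152, 101, 117 and 149 CPM, then at 209, 212, 214, 268 and 171 CPM, and from 155 to 268 CPM with a median of 235 CPM at GD144. For both anchor genes every GD124 and every GD144 library lay above every GD100 library, and GD124 and GD144 overlapped widely.

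The anchor genes had their called rise in the earlier interval, with log2 fold changes of 0.77 ± 0.20 for SDHC (edgeR adjusted p = 0.00855) and 0.73 ± 0.19 for SDHD (edgeR adjusted p = 0.00707). The SDHD value was 0.50 against GD100 replicate 1 alone and not called (edgeR adjusted p = 0.246). From GD124 to GD144 they stood at 0.01 ± 0.18 and 0.08 ± 0.16. With all libraries, the difference between the changes of both intervals was not called for any complex II gene. Its edgeR adjusted p was 0.44 for SDHA, 0.629 for SDHB, 0.169 for SDHC and 0.195 for SDHD. SDHC was called against GD100 replicate 1 alone, with a smaller change in the later interval. The summed complex II level was 348 ± 41.4 CPM (SD, n = 4) at GD100, 517 ± 50.05 CPM (SD, n = 5) at GD124 and 634 ± 97.0 CPM (SD, n = 6) at GD144.

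GD100 replicate 1 was the lowest GD100 library for SDHA, SDHB and SDHC and the highest for SDHD. Without it, the log2 fold change from GD100 to GD144 was 0.83 for SDHA, 0.79 for SDHB, 0.58 for SDHC and 0.89 for SDHD, and all were called. Against replicate 1 alone the values were 1.93, 1.14, 1.66 and 0.59, and SDHD was not called (edgeR adjusted p = 0.119). The rises of SDHA, SDHB and SDHC from GD100 to GD144 were called under each alternative scaling, filter, tool and set of libraries that was run. SDHC and SDHD overlap a further gene in the RefSeq annotation, and the strand setting of the counting is unknown here, so their values are uncertain to that extent. LOC114110816, the gene that overlaps SDHC, stood at 0.126 to 1.61 CPM at GD100 and at 0.180 CPM or below later.

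**Figure D2:**
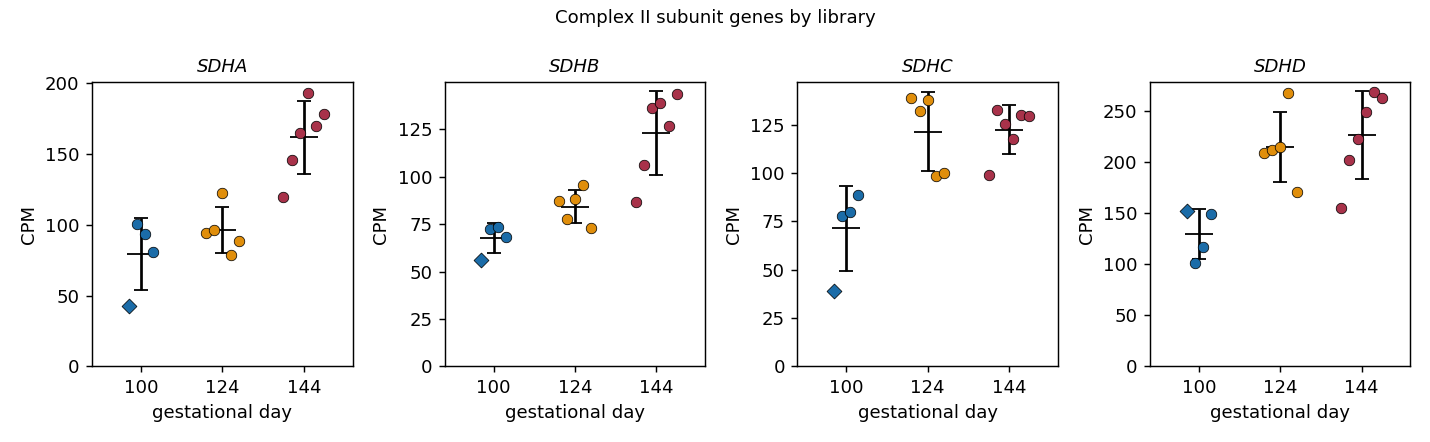
Level in CPM of SDHA, SDHB, SDHC and SDHD by gestational day, 1 point per library, with bars for the mean and SD. The diamond is GD100 replicate 1; SDHC and SDHD reach their GD144 range at GD124, and the mean of SDHA and SDHB is higher at GD144 than at GD124.

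Complex I is the largest complex of the chain and feeds it with electrons from NADH. Of its 39 nuclear genes, 12 rose and 5 fell from GD100 to GD144, with a median log2 fold change of 0.23. These are 30.8% higher and 12.8% lower, beside 27.1 and 27.9% of all genes, so the share called higher was near that of all genes. The summed level overlapped between stages, at 1497 ± 116, 1483 ± 141 and 1640 ± 242 CPM (SD, n = 4, 5 and 6). The calls ran in both directions within the catalytic core and within the accessory shell. In the earlier interval 1 gene was higher and 3 were lower (2.56 and 7.69%), beside 16.6 and 17.4% of all genes. In the later interval 3 were higher (7.69%) and 0 lower, beside 12.1 and 15.4% of all genes. By unadjusted p under 0.05 the later interval had 9 higher and 1 lower, and DESeq2 called 5 higher and 0 lower.

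The nuclear part of the core includes the subunits that bind NADH and carry the flavin and iron-sulphur clusters. Of 7 nuclear core genes, 3 rose from GD100 to GD144, NDUFS1 and NDUFV2 among them, and NDUFV1 and NDUFS8 fell. Over all genes, 27.1% were called higher and 27.9% lower in this comparison. NDUFS1, an iron-sulphur subunit, stood at 48.7, 51.6, 36.9 and 37.3 CPM at GD100, at 49.6, 47.8, 54.4, 41.9 and 41.1 CPM at GD124, and from 46.7 to 85.5 CPM with a median of 65.3 CPM at GD144. The stages overlapped, and the log2 fold change from GD100 to GD144 was 0.55 ± 0.17 (edgeR adjusted p = 0.0105). It was 0.39 against GD100 replicate 1 alone and not called (edgeR adjusted p = 0.259). NDUFV2, which carries an iron-sulphur cluster, changed by 0.35 ± 0.13 (edgeR adjusted p = 0.0316), and its call was likewise lost against replicate 1 alone (edgeR adjusted p = 0.249). NDUFS7, which carries the last cluster before coenzyme Q, was called in the later interval at 0.41 ± 0.14 (edgeR adjusted p = 0.0351) and not over the whole span. This NDUFS7 call held in 18 of 24 alternatives, and the NDUFV2 call from GD100 to GD144 in 14 of 24.

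NDUFV1 encodes the subunit with the flavin that accepts electrons from NADH. Its GD100 libraries stood at 90.1, 107, 111 and 89.2 CPM and its GD124 libraries at 66.7, 50.3, 64.1, 71.0 and 58.7 CPM, with no overlap. At GD144 it ran from 52.4 to 90.3 CPM with a median of 76.6 CPM, across the GD124 range and up to the lower GD100 libraries. The fall to GD124 had a log2 fold change of -0.68 ± 0.16 (edgeR adjusted p = 0.00385), and the later interval gave 0.26 ± 0.14, not called. The fall was -0.54 against GD100 replicate 1 alone and not called (edgeR adjusted p = 0.145), and the call over the whole span was lost too. The difference between the intervals was 0.94 ± 0.26 with an edgeR adjusted p of 0.0457, and it was not called in 10 of the 15 fits that left out 1 library. NDUFS8, an iron-sulphur subunit, stood at 102, 44.9, 58.3 and 64.8 CPM at GD100 and from 34.9 to 54.9 CPM at GD144. Replicate 1 lay far above the other GD100 libraries. Its log2 fold change of -0.60 ± 0.21 (edgeR adjusted p = 0.0213) became -0.33 without GD100 replicate 1 (edgeR adjusted p = 0.15).

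The 32 genes counted as accessory are the other nuclear NDUF members, grouped by name, with NDUFA4 and NDUFA4L2 among them. Accessory subunits surround the core and help in assembly and stability. From GD100 to GD144, 9 rose (NDUFC2, NDUFC1, NDUFB4, NDUFS4, NDUFA9, NDUFAB1, NDUFA4, NDUFB9 and NDUFB10) and 3 fell (NDUFB1, NDUFA11 and NDUFS5). Over all genes, 27.1% were called higher and 27.9% lower over this span. The call of NDUFB10 held in 4 of 24 alternatives. NDUFC2 stood at 12.8, 19.2, 22.9 and 23.9 CPM at GD100, at 29.3, 28.6, 26.9, 25.5 and 23.5 CPM at GD124, and from 25.6 to 39.9 CPM with a median of 37.4 CPM at GD144. The GD144 libraries lay above all GD100 libraries. The log2 fold change was 0.84 ± 0.17 (edgeR adjusted p = 0.000423), and NDUFC2 was the one complex I gene whose call from GD100 to GD144 held under every alternative run. NDUFC1, its partner in the membrane arm, changed by 0.63 ± 0.14 (edgeR adjusted p = 0.0015), and NDUFA9, which lies at the joint of the arms, by 0.50 ± 0.15 (edgeR adjusted p = 0.00956). NDUFC1 stood at 0.46 against GD100 replicate 1 alone and was not called (edgeR adjusted p = 0.152).

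NDUFAB1 is the mitochondrial acyl carrier protein, which also serves lipoic acid synthesis. It stood at 13.2, 24.7, 22.9 and 20.7 CPM at GD100, at 32.9, 30.8, 31.6, 32.8 and 23.3 CPM at GD124, and from 23.3 to 33.1 CPM with a median of 28.7 CPM at GD144. GD100 was low, with GD100 replicate 1 lowest, and overlapped the later stages at its upper end. Its called rise was in the earlier interval, at 0.57 ± 0.17 (edgeR adjusted p = 0.0151), and this call was lost with total counts alone. The difference between the changes of both intervals, at -0.66, was not called with all libraries. From GD100 to GD144 the log2 fold change was 0.48 (edgeR adjusted p = 0.0183), and 0.33 without GD100 replicate 1 (edgeR adjusted p = 0.0539).

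NDUFA11, a membrane subunit, stood at 14.5, 36.4, 37.4 and 27.2 CPM at GD100, at 22.6, 18.6, 18.3, 16.8 and 16.9 CPM at GD124, and from 14.3 to 22.1 CPM at GD144. GD100 replicate 1 lay below all GD124 libraries and within the GD144 range, and replicates 2 to 4 lay above every later library. The called fall from GD100 to GD144, -0.67 ± 0.21 (edgeR adjusted p = 0.0125), therefore rested on GD100 replicates 2 to 4. Against GD100 replicate 1 alone the value was 0.33. NDUFB1 was low, at 4.01 to 8.42 CPM at GD100 and 1.66 to 3.63 CPM at GD124, with no overlap, and changed by -1.26 ± 0.32 (edgeR adjusted p = 0.00679) in that interval. NDUFB1 stood at -0.52 against GD100 replicate 1 alone and was not called (edgeR adjusted p = 0.506), and its call over the whole span was lost too.

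By gene name, complex III was represented in the nucleus by UQCRH, the hinge protein that contacts cytochrome c1, and complex IV by COX5A, a structural subunit. With all libraries, neither was called in any comparison. UQCRH stood at 47.3, 99.2, 105 and 72.7 CPM at GD100, at 62.6 to 95.7 CPM at GD124 and at 49.97 to 88.9 CPM at GD144. COX5A stood at 16.1, 45.3, 44.6 and 27.7 CPM, then at 24.6 to 32.7 CPM and at 26.3 to 55.2 CPM. In both, GD100 replicate 1 was the lowest of its stage and the stages overlapped. The edgeR adjusted p from GD100 to GD144 was 0.317 for UQCRH and 0.287 for COX5A. COX5A was called higher over that span against GD100 replicate 1 alone, at 1.40 (edgeR adjusted p = 0.00779). It was also called higher from GD124 to GD144 without GD100 replicate 1, without GD100 replicates 2 to 4, without GD144 replicate 1 and with only these stages fitted.

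NDUFA4 carries a complex I name, although its protein has been assigned to complex IV, and NDUFA4L2 is its hypoxia-induced relative. NDUFA4 changed by 0.43 ± 0.17 from GD100 to GD144 (edgeR adjusted p = 0.046), with a mean of 75.8 ± 15.8 CPM (SD, n = 4) at GD100 and of 102 ± 20.5 CPM (SD, n = 6) at GD144. This call held in 6 of 24 alternatives and was lost, among others, with DESeq2 and without GD100 replicate 1 (0.29, edgeR adjusted p = 0.149). NDUFA4L2 had 2 to 24 counts in each library, around the floor of 3 counts in several. Its share of the counts of the pair was 0.0886 to 1.43% in the GD100 libraries, 0.0628 to 0.752% in those of GD124 and 0.118 to 0.970% in those of GD144. An exact two-sided permutation test over libraries gave p values of 0.524, 0.162 and 0.867 for GD124 against GD100, GD144 against GD124 and GD144 against GD100, or 0.786, 0.487 and 0.867 after Benjamini-Hochberg adjustment over these 3 comparisons. NDUFA4L2 also overlaps R3HDM2, STAC3 and SHMT2 in the annotation, so its few counts are uncertain.

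ATP synthase makes ATP in its F1 part, which sits on a proton-driven ring in the membrane and is held by a peripheral stalk. Of its 17 nuclear genes, 4 rose and 3 fell from GD100 to GD144, or 23.5 and 17.6%, neither above the shares of all genes. Of the 5 genes of the F1 part, ATP5F1A, ATP5F1B and ATP5F1C rose from GD100 to GD144, ATP5F1E fell and ATP5F1D was not called. ATP5IF1, whose protein blocks ATP hydrolysis by the enzyme and is also known for a role in haem synthesis, fell in all 3 comparisons. Of the other 11 genes, ATP5PO of the stalk rose and ATP5MF of the membrane part fell. The summed level over the 17 genes was 2252 ± 343, 1942 ± 134 and 2174 ± 377 CPM (SD, n = 4, 5 and 6).

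ATP5IF1 stood at 203, 477, 517 and 323 CPM in GD100 replicates 1 to 4, at 142, 119, 101, 111 and 173 CPM in the GD124 libraries, and from 40.4 to 122 CPM with a median of 59.9 CPM at GD144. Every GD100 library lay above every later library, and the upper GD144 value, from replicate 3, lay within the GD124 range. The log2 fold change from GD100 to GD144 was -2.52 ± 0.30 (edgeR adjusted p = 4.11e-06). It was -1.56 ± 0.31 in the earlier interval (edgeR adjusted p = 0.00169) and -0.96 ± 0.28 in the later one (edgeR adjusted p = 0.0183). The earlier fall was not called against GD100 replicate 1 alone (-0.65, edgeR adjusted p = 0.337).

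ATP5F1E encodes the epsilon subunit, a small protein of the central stalk of F1. It stood at 266, 248, 259 and 237 CPM at GD100, at 193, 163, 137, 183 and 158 CPM at GD124, and from 68.2 to 134 CPM with a median of 100.2 CPM at GD144. It was the one member in which no 2 stages overlapped in either interval. Its log2 fold changes were -0.60 ± 0.17 (edgeR adjusted p = 0.0141), -0.78 ± 0.16 (edgeR adjusted p = 0.0015) and, over the whole span, -1.38 ± 0.16 (edgeR adjusted p = 3.54e-06). The earlier fall was not called against GD100 replicate 1 alone (-0.68, edgeR adjusted p = 0.107) or with the replicate number as a block. ATP5F1E overlaps TUBB1, a tubulin gene of platelets and megakaryocytes, in the annotation. TUBB1 ranged over 40.8 to 62.2 CPM at GD100, then over 7.60 to 29.3 CPM at GD124, and lastly over 1.08 to 9.98 CPM at GD144. Its part in the ATP5F1E counts was not tested.

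ATP5F1A and ATP5F1B encode the alpha and beta subunits that form the catalytic hexamer. ATP5F1A stood at 104, 270, 219 and 199 CPM at GD100, at 245, 219, 290, 197 and 194 CPM at GD124, and from 258 to 436 CPM with a median of 343 CPM at GD144. ATP5F1B stood at 132, 355, 290 and 217 CPM, then at 283, 263, 342, 237 and 230 CPM, and from 287 to 479 CPM with a median of 398 CPM. In both genes GD100 replicate 1 was lowest and GD100 and GD144 overlapped. From GD100 to GD144, ATP5F1A changed by 0.76 ± 0.23 (edgeR adjusted p = 0.00901) and ATP5F1B by 0.66 ± 0.23 (edgeR adjusted p = 0.0239). Without GD100 replicate 1 the values were 0.56 (edgeR adjusted p = 0.0221) and 0.45 (edgeR adjusted p = 0.0681), and against it alone they were 1.69 and 1.58. ATP5F1C, the gamma subunit of the rotor, lay just inside the threshold at 0.34 ± 0.14 (edgeR adjusted p = 0.048). Its call held in 5 of 24 alternatives and was lost, among others, with total counts alone and without GD100 replicate 1 (edgeR adjusted p = 0.116). Against GD100 replicate 1 alone its value was 0.52.

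Ratios within a library do not depend on the scaling between libraries. Both ratios below set a gene called lower from GD100 to GD144 over a gene called higher. They are therefore not a separate test of those calls. Per 100 ATP5F1B counts, ATP5IF1 had 134 to 179 in the GD100 libraries, 29.5 to 75.3 in those of GD124, and 12.7 to 16.04 at GD144 except for 28.6 in GD144 replicate 3. The 3 stages did not overlap in this ratio. ATP5F1E had 255 counts per 100 ATP5F1A counts in GD100 replicate 1 and 91.9 to 119 in replicates 2 to 4, then 47.2 to 92.6 at GD124 and 23.3 to 37.97 at GD144. GD144 replicate 3 was the highest GD144 library in both ratios and in the summed erythroid and proliferation markers. Erythroid markers fell over the same stages: of 19 tested, 6 were called lower from GD100 to GD124 and 18 from GD124 to GD144, with 0 higher by edgeR in either. Without GD144 replicate 3, ATP5IF1 and ATP5F1E stayed called lower from GD100 to GD144. Proliferation markers fell in the same intervals, 5 and then 12 of 12. Beside these marker counts, 17.4 and then 15.4% of all genes were called lower. The part of erythroid or dividing cells in the falls of ATP5IF1 and ATP5F1E was not tested.

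**Figure D3:**
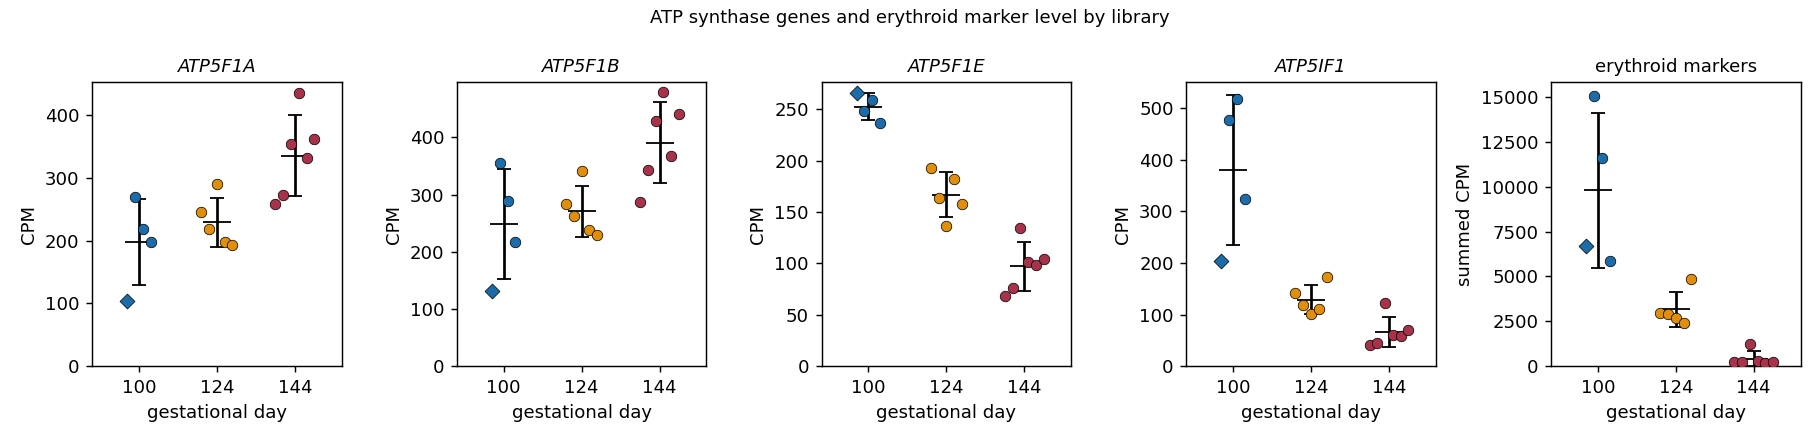
Level in CPM of ATP5F1A, ATP5F1B, ATP5F1E and ATP5IF1, and summed CPM of 19 erythroid markers, by gestational day, 1 point per library, with bars for the mean and SD. The diamond is GD100 replicate 1; ATP5F1E and ATP5IF1 descend with stage together with the erythroid sum, in which 1 GD144 library lies at 1252 CPM.

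The rotating ring is built from identical proteins made by ATP5MC1, ATP5MC2 and ATP5MC3. ATP5MC1 stood at 51.5 to 76.5 CPM at GD100, then at 34.4 to 61.5 CPM at GD124 and at 51.3 to 112 CPM at GD144, and was called higher in the later interval at 0.83 ± 0.21 (edgeR adjusted p = 0.00665). This call held in every alternative run. Its share of the counts of the 3 ring genes was 25.2 to 35.7% in the GD100 libraries, 18.5 to 27.7% in those of GD124 and 25.9 to 33.4% at GD144. With all libraries, ATP5MC2 and ATP5MC3 were not called in any comparison. Both were called higher against GD100 replicate 1 alone from GD100 to GD124, at 0.50 and 1.21, and from GD100 to GD144. ATP5MC3 was also called higher from GD100 to GD144 without GD100 replicate 2, without GD100 replicate 3 and without GD144 replicate 1.

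The 13 mitochondrial genes showed no called rise in any comparison of 2 stages, and ND6 alone was called lower. This was 7.69% of them from GD100 to GD124 and from GD100 to GD144, and 0% from GD124 to GD144. Of all genes, 16.6% were called higher and 17.4% lower from GD100 to GD124, and 12.1 and 15.4% from GD124 to GD144. From GD100 to GD144 these shares were 27.1 and 27.9%. The summed level of the mitochondrial genes was 131183 CPM in GD100 replicate 1 and 31884, 47155 and 59858 CPM in GD100 replicates 2 to 4. It ran from 68675 to 86878 CPM at GD124 and from 49530 to 117931 CPM at GD144, with a median of 76017 CPM. GD100 replicate 1 lay above all other libraries, and the other GD100 libraries lay below all GD124 libraries. The ratio of the mitochondrial to the nuclear sum was 37.96 in GD100 replicate 1, 7.11 to 13.96 in replicates 2 to 4, 17.1 to 24.2 in the GD124 libraries and 12.8 to 23.3 in those of GD144. GD100 replicate 1 lay above replicates 2 to 4 in 12 of the 13 mitochondrial members and below them in ND6. Among the 62 nuclear members it lay above them in 13, below in 40 and within their range in 9.

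**Figure D4:**
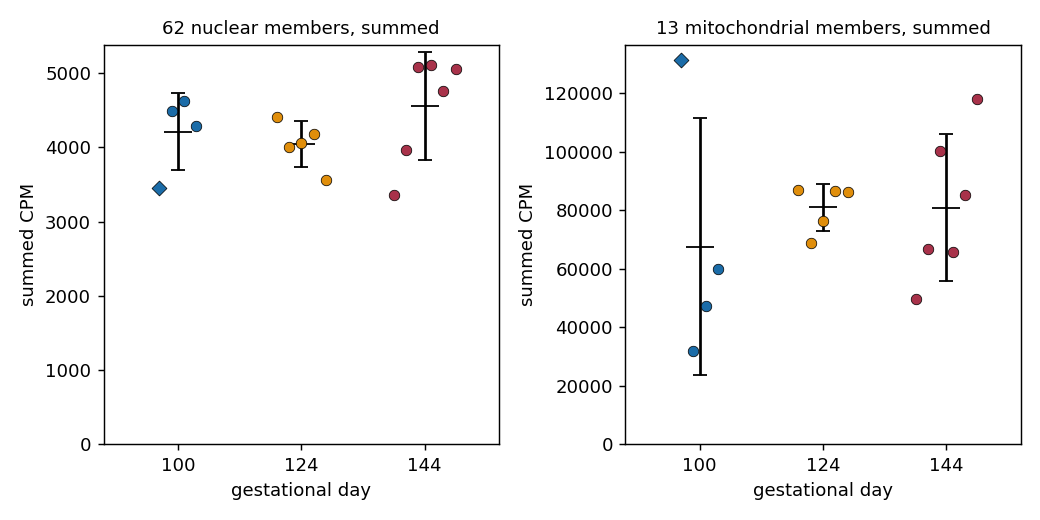
Summed CPM of the 62 nuclear members (left) and the 13 mitochondrial members (right) by gestational day, 1 point per library, with bars for the mean and SD. The diamond, GD100 replicate 1, is the lowest GD100 library for the nuclear sum, 3456 CPM, and the highest of all libraries for the mitochondrial sum, 131183 CPM.

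With all libraries, the median log2 fold change over the mitochondrial members was 0.18 from GD100 to GD124, 0.21 from GD124 to GD144 and 0.33 from GD100 to GD144. The count of higher calls was 0 by edgeR in each comparison, beside 16.6, 12.1 and 27.1% of all genes. At an unadjusted p under 0.05 it was 0, 1 and 0, and by DESeq2 it was likewise 0, 1 and 0, where the 1 gene was ND6. These counts turned on GD100 replicate 1. Without it, COX1 and COX3, the catalytic core and a further core subunit of complex IV, were called higher from GD100 to GD124, with values of 1.01 and 0.91. From GD100 to GD144, ND1, ND2, ND4, CYTB, COX1 and COX3 were then called higher, by 0.73 to 1.05, with a median of 0.85 over the 13 members. The share of all genes called in this fit is not reported here. Against GD100 replicate 1 alone, 0 were higher and 2 were lower in each of these comparisons, and the medians were -0.76 and -0.49.

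COX1 shows the pattern by library. It stood at 44250, 9876, 12686 and 16509 CPM in GD100 replicates 1 to 4, at 29882, 24002, 22254, 26968 and 28028 CPM in the GD124 libraries, and from 15821 to 30476 CPM with a median of 18354 CPM at GD144. Replicate 1 lay above, and replicates 2 to 4 lay below, every GD124 library. The log2 fold change from GD100 to GD144 was 0.05 ± 0.36 with all libraries, 0.73 without replicate 1 (edgeR adjusted p = 0.0382) and -1.03 against replicate 1 alone (edgeR adjusted p = 0.0203). CYTB, the mitochondrial subunit of complex III, ran from 2872 to 12405 CPM at GD100, from 5684 to 8870 CPM at GD124 and from 3657 to 15629 CPM at GD144, with a log2 fold change of 0.51 ± 0.39 from GD100 to GD144. ND1, which forms part of the coenzyme Q site of complex I, ran from 1035 to 3813, from 1958 to 2976 and from 2002 to 4987 CPM, with 0.65 ± 0.33.

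The division of mitochondrial counts among the complexes varied less than their sum. Complex IV genes took 44.6 to 50.9% of the counts of the 13 members in the GD100 libraries, 49.5 to 55.8% in those of GD124 and 41.7 to 50.1% in those of GD144. Complex I genes took 26.7 to 31.8, 23.9 to 27.0 and 27.1 to 34.5%. CYTB took 9.01 to 10.5, 8.28 to 11.6 and 7.38 to 13.3%. The share of complex I genes at GD144 lay above that at GD124 in all libraries, and the share of complex IV genes overlapped between the 2 stages. GD100 replicate 1 lay close to the other GD100 libraries in the complex IV share, at 50.9%.

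ND6 differed from the other mitochondrial genes. It is the one protein-coding gene on the opposite strand of the mitochondrial genome, and it overlaps ND5 in the annotation. ND6 stood at 9.38 CPM in GD100 replicate 1 and at 45.2, 67.6 and 119 CPM in replicates 2 to 4. It stood at 2.27, 0.792, 1.04, 2.58 and 0.982 CPM at GD124, and from 1.76 to 4.95 CPM with a median of 3.80 CPM at GD144. All GD100 libraries lay above all later ones. The log2 fold change was -5.28 ± 0.63 from GD100 to GD124 (edgeR adjusted p = 0.000143) and -4.12 ± 0.55 from GD100 to GD144 (edgeR adjusted p = 2.12e-05). Against GD100 replicate 1 alone the values were -2.61 (edgeR adjusted p = 0.00734) and -1.43 (edgeR adjusted p = 0.0602).

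The ratio to ND5 set GD100 replicates 2 to 4 apart more sharply. ND6 had 8.82, 12.3 and 6.93 counts per 100 ND5 counts in these libraries. It had 0.301 in GD100 replicate 1, 0.0775 to 0.183 at GD124 and 0.131 to 0.314 at GD144. Replicate 1 thus lay within the GD144 range. The libraries with high ND6 are those with the larger share of genes carrying fractional counts, and the part of the counting in the ND6 values was not tested.

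**Figure D5:**
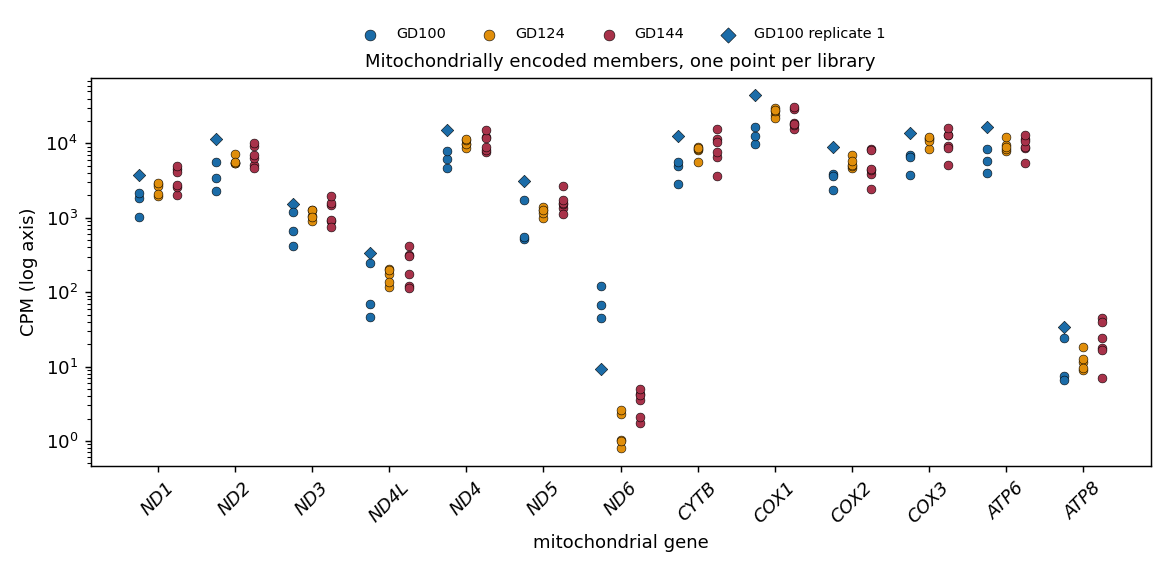
Level in CPM, on a log axis, of each of the 13 mitochondrial members, 1 point per library, with GD100 replicate 1 as a diamond. In ND6 the GD100 points lie above all later ones and replicate 1 is the lowest of them, whereas replicate 1 is the highest GD100 point in the other 12 genes.

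The changes of both intervals were also compared with each other. Over all genes, 2.15% were called higher in the later interval than in the earlier one and 3.75% lower. Of the 75 members, 2 were called higher, ND6 and NDUFV1, and 0 lower by edgeR. At an unadjusted p under 0.05 the counts were 5 and 3, and DESeq2 called 4 and 0. For ND6 the difference was 6.44 ± 1.09 (edgeR adjusted p = 0.00715). ATP5MC1 stood at 1.19 ± 0.38, with an edgeR adjusted p of 0.0739.

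Assembly factors build the complexes without being part of them. The counts of this and the further lists stand beside 16.6% higher and 17.4% lower over all genes from GD100 to GD124, 12.1 and 15.4% from GD124 to GD144, and 27.1 and 27.9% from GD100 to GD144. Of 18 factors for complex I, 3 were higher and 1 lower from GD100 to GD124, 7 higher and 0 lower from GD124 to GD144, and 9 higher and 2 lower of the 18 over the whole span. Against GD100 replicate 1 alone the last counts were 4 and 1. NUBPL, which delivers iron-sulphur clusters, stood at 4.04, 4.99, 5.28 and 5.40 CPM at GD100, at 14.4, 8.97, 7.32, 9.59 and 10.1 CPM at GD124 and at 13.2 to 17.4 CPM at GD144, with a log2 fold change of 1.65 ± 0.18 from GD100 to GD144 (edgeR adjusted p = 1.23e-06). Its GD100 libraries lay below all others. FOXRED1 and NDUFAF1 changed by 1.32 and 1.09, and NDUFAF8 by -0.77. Of 10 factors for complexes II, III and V, 3 were higher over the whole span and 1 lower, with ATPAF1, a chaperone of the F1 part, at 0.83 and SDHAF2, which attaches the flavin to SDHA, at -0.49. Of the 4 factors for complex IV in the table, COX15, which makes haem A, rose by 1.02, HIGD2A by 0.51, and CMC2 fell by 1.65 on the log2 scale.

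Other genes make coenzyme Q or pass electrons to it. Of 19 tested, 8 were higher and 0 lower from GD100 to GD124, 9 and 0 from GD124 to GD144, and 12 and 1 over the whole span (63.2 and 5.26%), with a median log2 fold change of 0.58. Against GD100 replicate 1 alone the last counts were 8 and 1. ETFDH, which brings electrons from fatty acid oxidation to coenzyme Q, stood at 7.96, 16.8, 15.9 and 18.6 CPM at GD100, at 29.5, 24.7, 23.3, 22.1 and 19.7 CPM at GD124, and at 39.5 to 82.3 CPM at GD144. The stages did not overlap. Its log2 fold change was 2.07 ± 0.24 (edgeR adjusted p = 3.21e-06). COQ2, an enzyme of coenzyme Q synthesis, changed by 1.43 and SQOR, the sulphide oxidase that reduces coenzyme Q, by 1.17, whereas COQ8B, a kinase-like protein of the pathway, stood at -1.14. CYCS and CYC1 are not analysed here.

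The list for the tricarboxylic acid cycle, which supplies NADH and succinate, also holds the pyruvate dehydrogenase genes PDHA1, PDHB, DLAT and PDHX. Of its 17 genes, 10 were higher and 2 lower (58.8 and 11.8%) from GD100 to GD144. PDHB, a subunit of pyruvate dehydrogenase, was at 59.9 ± 4.80 CPM (SD, n = 4) at GD100, 79.1 ± 9.90 CPM (SD, n = 5) at GD124 and 153 ± 30.6 CPM (SD, n = 6) at GD144, a log2 fold change of 1.35 ± 0.15 (edgeR adjusted p = 1.88e-06). SUCLG2, FH and DLD changed by 1.19, 1.07 and 1.03. FH takes the fumarate that complex II makes. CS, citrate synthase, went the other way, with a mean of 70.6 ± 12.0 CPM (SD, n = 4) at GD100, 39.97 ± 8.65 CPM (SD, n = 6) at GD144 and -0.82 ± 0.17 (edgeR adjusted p = 0.00056).

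The list of 26 genes for mitochondrial DNA upkeep and transcription also holds genes that act on mitochondrial RNA, such as LRPPRC and MTPAP. Of the 26, 4 were higher and 4 lower from GD100 to GD124, and 7 and 2 from GD124 to GD144. Over the whole span 9 of these genes were higher and 3 lower (34.6 and 11.5%). MGME1, an exonuclease for mitochondrial DNA, changed most among these, with a mean of 44.9 ± 8.17 CPM (SD, n = 4) at GD100, 13.5 ± 1.77 CPM (SD, n = 6) at GD144 and -1.73 ± 0.17 (edgeR adjusted p = 5.42e-07). TFB2M, an initiation factor of mitochondrial transcription, changed by 1.08, and the RNA-binding FASTKD1 and FASTKD2 by 1.10 and 0.89. TFAM, the packaging and transcription factor, stood at 0.23 ± 0.18 (edgeR adjusted p = 0.29), and POLRMT, the mitochondrial RNA polymerase, at -0.02 ± 0.13 (edgeR adjusted p = 0.926).

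Regulators of mitochondrial biogenesis moved in opposite directions. Of 15 in the table, 13 were tested, and 6 were higher and 3 lower (46.2 and 23.1%) from GD100 to GD144. PPARGC1A, the coactivator PGC-1alpha, stood at 10.7, 5.48, 9.10 and 9.31 CPM at GD100, at 17.0, 19.1, 21.1, 26.9 and 28.6 CPM at GD124, and at 31.4 to 63.1 CPM with a median of 43.9 CPM at GD144. No stage overlapped another. Its log2 fold change was 2.39 ± 0.24 (edgeR adjusted p = 5.53e-07). NRF1, a transcription factor for nuclear respiratory genes, stood at 31.1, 41.4, 40.0 and 23.8 CPM, then at 19.4, 22.7, 17.7, 25.1 and 29.3 CPM, and at 10.8 to 13.7 CPM at GD144. GD144 lay below all earlier libraries. The log2 fold change of NRF1 was -1.55 ± 0.16 (edgeR adjusted p = 1.04e-06).

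ESRRA, the nuclear receptor that PGC-1alpha coactivates, changed by 0.70 ± 0.18 over the whole span (edgeR adjusted p = 0.00298), with the called part in the later interval, at 0.93 ± 0.17. TFEB, a regulator of lysosomes and mitochondria, changed by 0.88 and PPRC1, a PGC-1-related coactivator, by -0.87. GABPA, whose product binds promoters of respiratory genes, stood at -0.15 ± 0.14 (edgeR adjusted p = 0.383). Without GD100 replicates 2 to 4 the regulators had 3 higher and 2 lower calls, with PPARGC1A at 2.08 and NRF1 at -1.41, both called. Without GD100 replicate 1 the counts were 6 and 3. PPARGC1A, ESRRA, PPRC1, NUBPL, COX15, ETFDH, COQ2, SUCLG2, CS, MGME1 and FASTKD1 overlap a further gene in the annotation, as do GABPA and the stalk gene ATP5PF with each other, so their values are uncertain to that extent.

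Among the members described, UQCRH, NDUFA4L2, NDUFS4, ATP5F1B, ATP5F1C, ATP5F1E, ATP5MC2, ATP5MC3, SDHC and SDHD overlap a further gene, as do 15 nuclear and 7 mitochondrial members in all. GD144 replicate 1 was the lowest GD144 library in 63 of the 75 members, 54 of them nuclear.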

How the data were processed

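The authors deposited a table of estimated counts per gene for the 15 libraries. DRAGEN is named in the submitters' processing notes. The build, gene models, strand setting and DRAGEN version are unknown here. Fractions made up 6.549% of values and were rounded, with library totals moving by at most 27.86 counts. All 75 members matched the RefSeq gene table. Genes were filtered with filterByExpr, scaled by TMM and fitted in edgeR 4.0.16 (R 4.3.3) in 1 quasi-likelihood model with a term per stage, with Benjamini-Hochberg adjustment over 16977 genes and a threshold of 0.05. The standard error of a log2 fold change is its size over the square root of F. The common biological coefficient of variation was 34%. DESeq2 1.42.0, other scalings and filters, a replicate block and fits without single libraries were alternatives. The fits were tested on simulated data. The members and the gene lists were chosen with earlier results of these data known. Named members were the mitochondrial genes, the 5 largest called rises and falls per comparison, the 2 most abundant nuclear genes per complex, those nearest the threshold and some fixed by name. From each other list up to 4 called genes with the largest change and some fixed genes were named. Other called subunits were named by role after their values were seen. The values of 1 nuclear member are not reported here by name. Promoter motifs and isoform pairs of complex IV are not analysed here.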

Additional observations from a re-analysis of the deposited data

Results flagged for a closer look

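In 6 of 117 groups of libraries tested, 1 library lay farther from the rest of its stage than Dixon's 95% critical value, and chance flags about 1 in 20 groups. ND2 stood at 7248 CPM in GD124 replicate 4, above the other GD124 libraries. CYTB stood at 5684 CPM in GD124 replicate 2, below the other GD124 libraries. NDUFAB1 stood at 23.3 CPM in GD124 replicate 5, below the others of its stage. ATP5IF1 stood at 122 CPM in GD144 replicate 3, above the others, in the library with the highest erythroid sum of its stage. NDUFA4 stood at 52.1 CPM in GD100 replicate 1, below the others. NDUFA4L2 stood at 0.783 CPM in GD124 replicate 4, above the others, on 24 counts.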

How the results depend on the processing

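Of the calls from GD100 to GD144, 5 of 20 higher (SDHA, SDHB, SDHC, NDUFC2 and ATP5F1A) and 2 of 9 lower (ATP5IF1 and ATP5F1E) held in all 24 alternatives. The causes of the differences below were not tested. From GD100 to GD124, 10 members were lower with total counts alone, and 12 were higher and 3 lower without GD100 replicates 2 to 4. From GD124 to GD144, 11 were higher with total counts alone, 12 with DESeq2, 3 with the replicate block, 13 without GD100 replicates 2 to 4 and 14 with only the 2 stages compared. From GD100 to GD144, 9 were higher with total counts alone, 10 with the replicate block and 11 with only the 2 stages. For the difference between intervals, 1 was higher without the filter, 4 with DESeq2 and 1 with the replicate block, and 3 were lower without GD100 replicates 2 to 4. Leaving out single libraries gave 3 to 5 higher and 5 to 6 lower members from GD100 to GD124, 3 to 16 and 1 to 2 from GD124 to GD144, 11 to 24 and 6 to 9 from GD100 to GD144, and 1 to 3 and 0 to 0 between intervals. Without GD100 replicates 2 to 4, COX1 and ND5 stood at -1.03 and -0.89 from GD100 to GD144, and NDUFA11 at 0.36 to GD124 and 0.33 to GD144. With total counts alone the split over all genes from GD100 to GD124 was 1805 higher and 4055 lower, against 2825 and 2949, and the median moved from 0.015 to -0.164. That split was 2520 and 2138 against 2046 and 2617 from GD124 to GD144, and 789 and 388 against 365 and 637 between intervals. After the stage mean of each gene was subtracted on the log CPM scale, same-numbered libraries correlated from -0.155 to 0.144 over 13 pairs. The replicate numbers were therefore not taken as pairs. From GD100 to GD124, complex I assembly had 1 higher and 2 lower with relative log expression (RLE) size factors and 1 and 4 with total counts. Factors of complexes II, III and V had 1 and 2 with total counts, where 2 were also lower to GD144. Complex IV factors had 1 higher under either scaling. Coenzyme Q genes had 3 higher and 2 lower with total counts and 1 lower with RLE, and mitochondrial DNA genes 1 higher and 7 lower with total counts. Regulators had 1 lower from GD124 to GD144 under either scaling. In alternatives chosen after seeing the data, complex I assembly had 4 higher and 1 lower from GD100 to GD144 without GD100 replicates 2 to 4, complex II, III and V factors 1 higher and regulators 3 higher. Leaving out GD100 replicate 1 or GD144 replicate 3 gave 3 to 5 higher and 1 to 2 lower for complex II, III and V factors. Counting depth limits NDUFA4L2, at 2 to 24 counts.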
